A study of Mus musculus with 12 samples.

Results

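The comparison of mRNA abundance between Rpl10a LOF/LOF and wild-type embryos rests on 6 RNA-seq libraries, the RNA part of a series of 12 libraries whose other 6 hold ribosome-protected footprints (RPF). Each RNA library came from the lysate of 1 whole mouse embryo at E8.5, with 3 embryos that were Rpl10a +/+ and 3 that carried the LOF allele on both chromosomes. The LOF allele is a hypomorph made by CRISPR on a C57BL/6 background, and it extends the RPL10A protein at its N terminus. No embryos were pooled, all were dissected in cycloheximide, and their sex was not determined by the study. A transcript entered the comparison when it exceeded 0.75 CPM, a unit that divides its count by the library total, in at least 3 of the 6 RNA libraries. This kept 13985 of the 22467 transcripts in the table, among them 1623 that a filter of the same height on the RPF libraries would have left out and 791 without any RPF count.

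RPL10A (uL1) is a protein of the large ribosomal subunit. Faults in ribosomal proteins or in ribosome assembly are known to stabilize p53, a transcription factor that MDM2 otherwise marks for degradation, and p53 then raises genes for cell cycle arrest, cell death and repair. At E8.5 the mouse embryo holds a looping heart tube, the first red blood cells, a neural plate and somites, and it is enclosed by the visceral endoderm of the yolk sac, an absorptive epithelium that makes serum proteins before the liver exists.

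In all, the mRNA of Rpl10a LOF/LOF embryos differed from wild-type in 539 transcripts at an FDR below 0.1 in edgeR's quasi-likelihood test, which is 3.85% of those tested. Of these, 196 were higher (1.4% of those tested) and 343 were lower (2.45%). Changes upward were mostly small, with a median log2 fold change of 0.37, and 25 transcripts rose by more than 1 on the log2 scale. Changes downward were larger, with a median of -0.60 and 100 transcripts below -1. In 538 of the 539 the 3 embryos of one genotype did not overlap the 3 of the other in CPM. Such separation was found in 8.08% of all transcripts tested in the upward and 13.8% in the downward direction. The 3 transcripts of lowest p, Ccng1, Eda2r and Phlda3, were p53 targets and higher, and 24 of the transcripts called lower belonged to a list of visceral endoderm genes. With single embryos left out in turn the number of calls ranged from 86, without wild-type replicate 1, to 525, without mutant replicate 2.

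**Figure D1:**
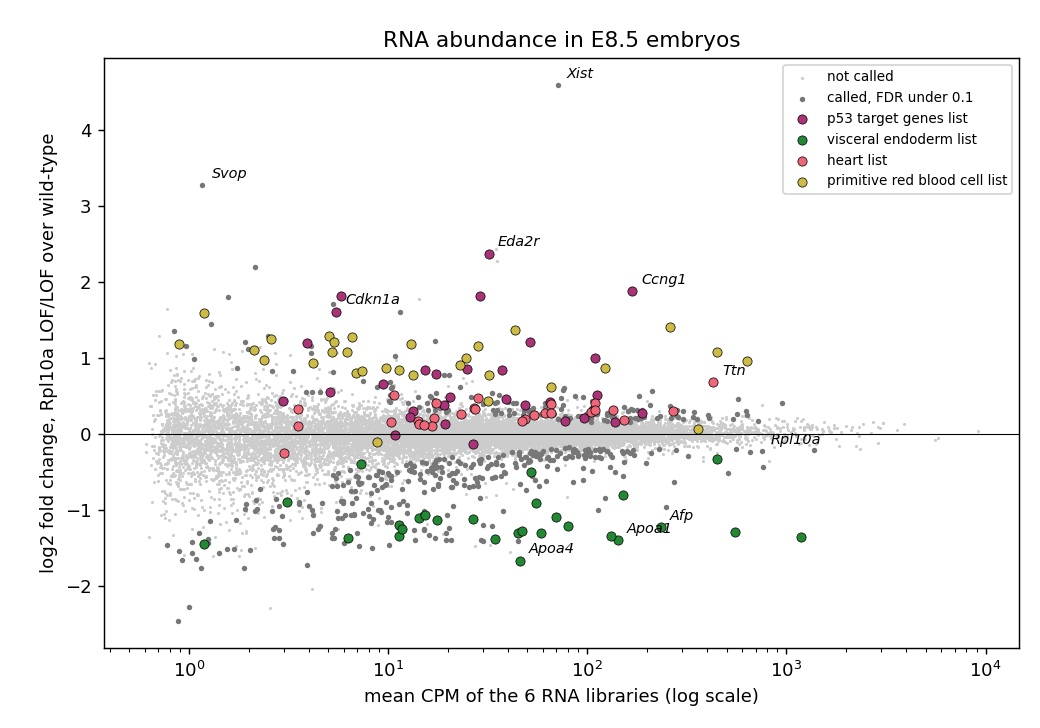
Log2 fold change of Rpl10a LOF/LOF over wild-type embryos (vertical axis) against the mean CPM of the 6 RNA libraries (horizontal axis, log scale) for the 13985 transcripts tested, with called transcripts in dark grey and the members of 4 gene lists in colour. Eda2r at 2.37 and Ccng1 at 1.88 stand out upward, and visceral endoderm genes such as Apoa4 at -1.66 gather near the lower edge.

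The libraries held between 9132521 and 26561843 counts, with the 2 shallowest being wild-type replicate 1 and Rpl10a LOF/LOF replicate 3. Standard errors of the log2 fold change, taken from the F statistic, had a median of 0.29 for transcripts under 2 CPM and 0.06 for those over 20 CPM. Summed over Uty, Kdm5d, Eif2s3y and Ddx3y of the Y chromosome, CPM was 172, 183 and 183 in the wild-type embryos and 8.43, 167 and 2.51 in Rpl10a LOF/LOF replicates 1, 2 and 3. Xist, the RNA that silences one X chromosome in female cells, was 7.34, 4.89 and 5.66 CPM in wild-type and 227, 8.57 and 173 CPM in mutant embryos. The wild-type embryos and mutant replicate 2 thus carried a Y chromosome and mutant replicates 1 and 3 did not, so sex is in part confounded with genotype. Of 504 X-linked transcripts tested, 4.56% were called, against 3.83% of all others. With sex as a covariate 31 transcripts were called, 27 of them among the 539, and with the 4 male embryos alone 32, of which 28 were among the 539. In both of these fits the difference between genotypes rests on mutant replicate 2, and the fit on males assumes that this lone mutant varies like the wild-type embryos. On the first principal component, with 43% of the variance, the wild-type embryos lay at -23.1, -12.5 and -10.9 and the mutants at 12.9, 3.57 and 30.1, so replicate 2 was the mutant nearest to wild-type.

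Rpl10a itself was examined first. Its transcript, ENSMUST00000233427.1, has 6 exons and is annotated to the plus strand at chr17:28328568-28331032 (GRCm38). Its level was 824, 774 and 845 CPM in the wild-type embryos and 672, 668 and 734 CPM in the mutants. All 3 mutants lay below all 3 wild-type embryos (p = 0.1 in an exact permutation test, two-sided, which cannot go lower with 3 against 3). The log2 fold change was -0.22 (SE 0.06, FDR = 0.089 by edgeR's quasi-likelihood test), so most Rpl10a mRNA was still present. With each embryo left out in turn it ranged from -0.26 to -0.19, and it passed the threshold in 2 of those 6 fits. With sex as a covariate it was at -0.28 and did not pass. Reads from pseudogene copies of Rpl10a cannot be told apart in these counts. The LOF mRNA also keeps part of an intron, while reads were aligned to reference transcripts. What this does to the count was not tested.

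Targets of p53 rose together. Of 34 genes listed as p53 targets, 31 were kept, and 23 of them were higher and 0 lower, against 1.4% higher among all transcripts tested. The median log2 fold change of the list was 0.49, while that of all transcripts was -0.00118. Fas, Gdf15 and Trp73 fell below the filter.

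Ccng1, which encodes cyclin G1, had 72.9, 65.8 and 79.2 CPM in wild-type and 299, 250 and 243 CPM in mutant embryos. Its log2 fold change was 1.88 (SE 0.09, FDR = 4.4e-05 by edgeR's quasi-likelihood test). Eda2r, a death receptor of the tumour necrosis factor family encoded on the X chromosome, had 10.4, 10.1 and 11 CPM in wild-type and 64.4, 48.0 and 48.6 CPM in mutant embryos, a log2 fold change of 2.37 (SE 0.13, FDR = 4.4e-05 in the same test). For both genes the lowest mutant embryo was above 3 times the highest wild-type level. Cdkn1a, the p21 inhibitor of cyclin-dependent kinases, was scarce, at 3.07, 2.75 and 2.43 CPM in wild-type and 8.63, 7.55 and 8.46 CPM in mutant embryos (log2 fold change 1.61, SE 0.14). Phlda3, an inhibitor of Akt, went from 12.4, 11.8 and 14.4 CPM to 50.7, 39.6 and 44.8 CPM (1.82, SE 0.11). Trp53inp1, a cofactor of p53 in cell death, went from 33.7, 30.6 and 30.4 CPM to 83.6, 69.0 and 62.3 CPM (1.21, SE 0.10). None of these genes overlapped between the genotypes.

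**Figure D2:**
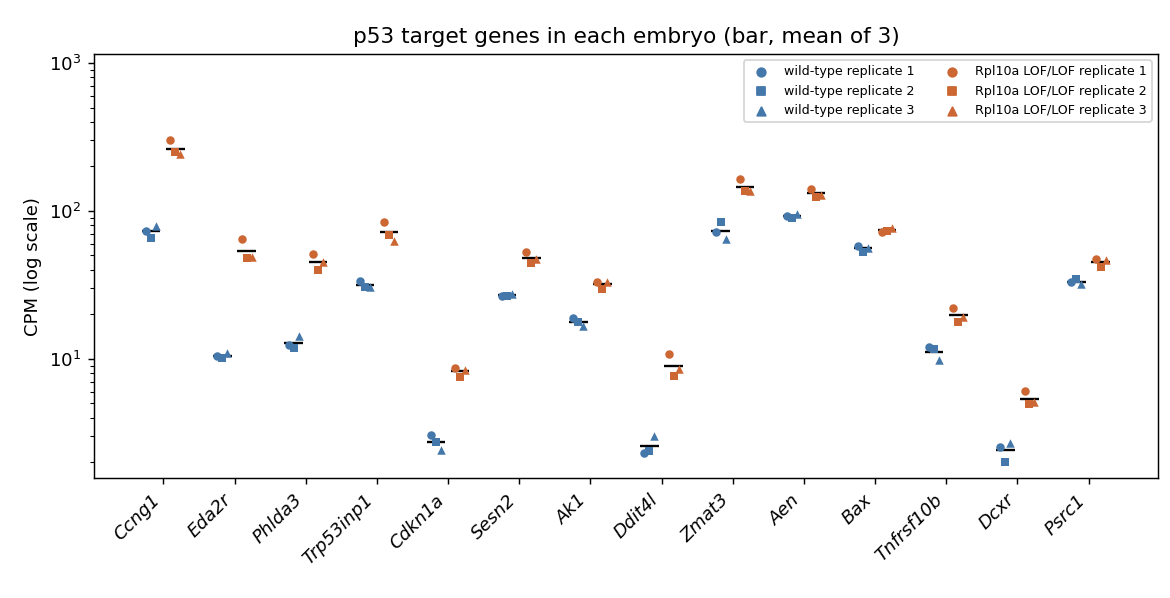
CPM (log scale) of 14 p53 target genes in each embryo, with wild-type in blue, Rpl10a LOF/LOF in orange, 1 marker shape per replicate and a bar at the mean of 3. In every gene shown the 3 mutant embryos lie above the 3 wild-type embryos, from more than 3-fold for Ccng1 to the narrow step of Bax between 57.7 and 72.4 CPM.

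Ddit4l, an inhibitor of growth signalling, was scarce and had 2.30, 2.37 and 3.00 CPM in wild-type and 10.8, 7.65 and 8.57 CPM in mutant embryos (log2 fold change 1.81, SE 0.18). Sesn2, a sestrin that restrains growth signalling, was 26.5, 26.8 and 27.5 CPM in wild-type and 52.4, 44.3 and 47.2 CPM in mutant embryos (log2 fold change 0.85, SE 0.08). Zmat3, which encodes an RNA-binding protein, had a log2 fold change of 1.00 (SE 0.10). Bax, which permeabilizes mitochondria in apoptosis, had 57.7, 53 and 56.4 CPM in wild-type and 72.4, 72.7 and 76.1 CPM in mutant embryos (0.42, SE 0.05). The BH3-only genes Bbc3 (0.65) and Pmaip1 (0.79) were also higher. Mdm2, the ligase that turns p53 over, rose by little, from 70.5, 74.5 and 72.9 CPM to 81.0, 82.2 and 81.0 CPM (0.18, SE 0.05, FDR = 0.097 by edgeR's quasi-likelihood test). Trp53 mRNA itself was 136, 127 and 132 CPM in wild-type and 143, 141 and 151 CPM in mutant embryos and did not pass the threshold (0.15, SE 0.05, FDR = 0.16 in the same test).

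Of the list, 10 members were called with sex as a covariate, and with the male embryos alone 10. The medians were 0.48 and 0.42. Ccng1 was then at 1.86 and 1.81, and Eda2r at 2.29 and 2.22. Without wild-type replicate 1 the list had 14 calls, at a median of 0.47. A second list of 29 p53 targets was written after the values had been seen and supports nothing either way. It had 15 of 26 members higher and 1 lower, against 1.4% and 2.45% of all transcripts tested, and 9 higher with sex as a covariate or 7 in male embryos alone. Its lower member was Dram1, a lysosomal membrane protein, at -0.95.

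Short stretches before the start of some of these genes are shown because members of the list moved together and hold letters of the p53 half-site, the 10-letter consensus to which one p53 dimer binds. The promoters are those of RefSeq on GRCm38.p6, searched on both strands over 250 bases before each start. Capitals mark the match, and each window is on the strand of its gene. The windows lie at chr17:29090908-29090957 for Cdkn1a, chr7:45467070-45467119 for Bax, chr7:78895917-78895966 for Aen, which encodes a nuclease of apoptosis, and chr10:117710915-117710964 for Mdm2.
Cdkn1a: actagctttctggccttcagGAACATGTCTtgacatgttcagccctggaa
Bax: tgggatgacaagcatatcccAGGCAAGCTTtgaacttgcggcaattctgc
Aen: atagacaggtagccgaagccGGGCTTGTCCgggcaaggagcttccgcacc
Mdm2: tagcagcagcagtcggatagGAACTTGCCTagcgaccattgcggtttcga
The half-site was found in 7.13% of all 32851 promoters of the table. It was found in at least 1 promoter of 12.1% of the 157 transcripts called higher that matched the table and of 9.29% of the 280 called lower. Counted in the same way it was in 7.37% of the 10974 transcripts that matched among all tested (78.5%), so this last share stands for those matched only. Of the p53 list 23 of 31 members matched the table (74.2%), too few for a share, and 10 of the 23 hold the half-site. A match describes letters and is not evidence of binding.

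Of the 539 called, 18 failed the filter on RPF libraries, 11 higher and 7 lower. These were 1.11% of the 1623 such transcripts (0.678% higher, 0.431% lower), against 3.85% called among all tested, and 8 of the 539 called were not protein coding. Xist, given above, had the largest change among the 18 and is set aside here as part of the sex check. Svop, a transporter-like protein of synaptic vesicles, was nearly absent in wild-type embryos, at 0.219, 0.301 and 0.140 CPM, and reached 2.53, 2.56 and 1.25 CPM in mutants (log2 fold change 3.27, SE 0.40). These levels rest on 2 to 8 counts per wild-type library and 12 to 53 per mutant library, and Svop passed the filter through the mutant embryos alone. Of the called transcripts 2 that were higher had entered through the mutants alone and 9 that were lower through the wild-type embryos alone. Zfp365, a zinc-finger gene that p53 is known to raise, had 5.15, 5.80 and 6.18 CPM in wild-type and 20.6, 17.2 and 13.7 CPM in mutant embryos (1.60, SE 0.15). Trp53cor1, the long noncoding RNA lincRNA-p21 beside Cdkn1a on chromosome 17, had 0.657, 0.527 and 0.889 CPM in wild-type and 1.69, 1.98 and 1.99 CPM in mutants (1.45, SE 0.27). The other 2 of the 5 largest rises after Xist were Gm37795 (1.8), an unclassified transcript on chromosome 4, and the microRNA precursor Mir5106 (1.16). In the other direction the rule named Fxyd2 (-1.65), a regulator of the sodium pump, Proz (-1.56), which encodes the plasma protein Z, Vipr1 (-0.98), a peptide hormone receptor, Vmn1r26 (-0.72), a vomeronasal receptor gene, and Ifi30 (-0.69), a lysosomal reductase. Fxyd2 and Proz had passed the filter through the wild-type embryos alone. With an embryo left out, Mir5106 and Vmn1r26 were called in 0 of 6 fits and Vipr1 in 1. With sex as a covariate Svop and Zfp365 were called and the other 8 of these 10 were not.

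Visceral endoderm genes fell together. Of 30 genes listed for this epithelium 27 were kept, and 24 of them were lower and 0 higher, against 2.45% lower among all transcripts tested. All 27 had log2 fold changes below 0, with a median of -1.22. Summed over the list, CPM was 5262, 4832 and 4215 in wild-type and 1761, 3114 and 1553 in mutant embryos, so mutants held 44.9% of the wild-type mean. Fewer cells of a type and less RNA per cell cannot be told apart in whole embryos. How much yolk sac each dissected embryo kept is not given in the sources used here, and its part in the result was not tested.

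Carriers of lipid, vitamins and hormones made up much of the loss. Apob, the backbone of lipoprotein particles, had 1944, 1687 and 1479 CPM in wild-type and 503, 1042 and 429 CPM in mutant embryos (log2 fold change -1.35, SE 0.28). Apoa1 and Apoa4, neighbours on chromosome 9 that encode apolipoproteins, fell by 1.39 (SE 0.25) and 1.66 (SE 0.25). Apoa4 had 78.8, 67.0 and 65.3 CPM in wild-type and 23.7, 28.7 and 10.6 CPM in mutant embryos. Ttr, the carrier of thyroid hormone, had 222, 177 and 175 CPM in wild-type and 52.9, 113 and 52.8 CPM in mutants (-1.34, SE 0.26). Rbp4, the retinol carrier, went from 117, 122 and 99.1 CPM to 34.6, 74.9 and 31.4 CPM (-1.21, SE 0.27). Afp, the fetal serum protein, had 321, 327 and 345 CPM in wild-type and 139, 199 and 77.4 CPM in mutants (-1.22, SE 0.25, FDR = 0.046 by edgeR's quasi-likelihood test). The wild-type and mutant embryos did not overlap for any of these 6 genes.

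In all of them mutant replicate 2 kept the most mRNA. It was the highest of the 3 mutants in 27 of the 27 genes kept and lay between the other mutants and the wild-type embryos in 26. Among all 343 transcripts called lower it was the highest mutant in 248, and among the 100 called below -1 in 88. Mutant replicate 2 was also the 1 male mutant, and sex and this gradation cannot be told apart with 3 embryos. Without it, 27 members were called lower and the median was -1.71. Without wild-type replicate 1 there were 4 calls at a median of -1.19, without mutant replicates 1 and 3 there were 8 and 13, and without wild-type replicate 2 there were 15. With sex as a covariate 2 were called, at a median of -0.64 with all 27 below 0, and in male embryos alone 3 were called, at -0.71.

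**Figure D3:**
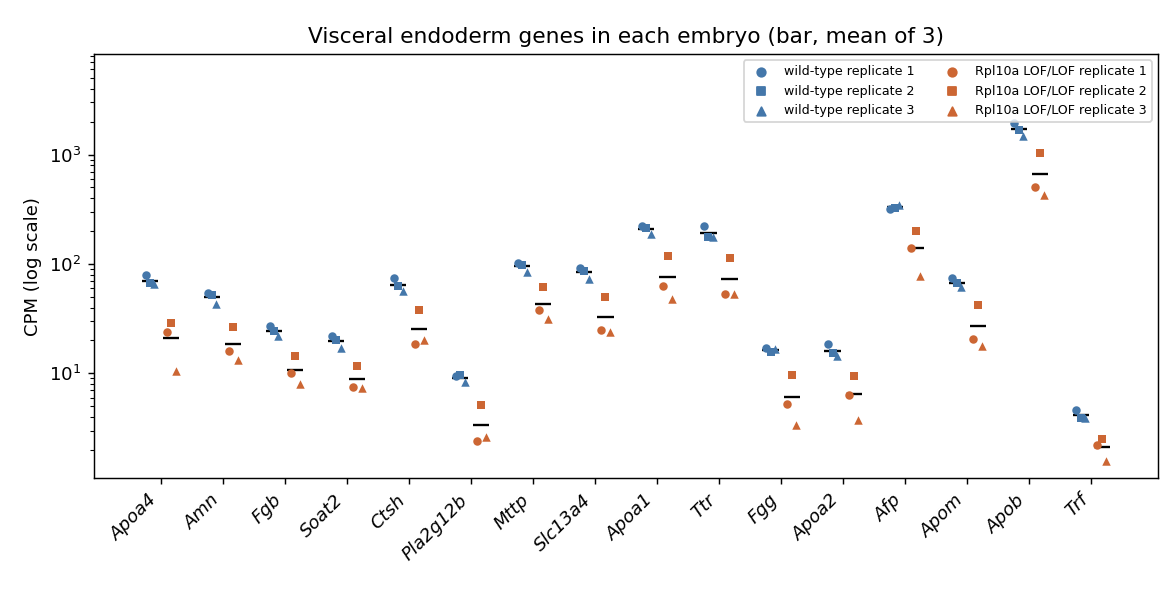
CPM (log scale) of 16 visceral endoderm genes in each embryo, with wild-type in blue, Rpl10a LOF/LOF in orange, 1 marker shape per replicate and a bar at the mean of 3. Every mutant embryo lies below every wild-type embryo, and mutant replicate 2 (squares) is the highest mutant in each gene, as for Apoa1 at 119 CPM against 63.5 and 47.5.

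The fibrinogen chains, which are made by this epithelium and later by the liver, lie side by side on chromosome 3 and fell alike. Fgb had 27.4, 24.3 and 22 CPM in wild-type and 10.1, 14.3 and 8.05 CPM in mutant embryos (log2 fold change -1.12, SE 0.18). Fga and Fgg were at -1.24 (SE 0.27) and -1.34 (SE 0.27). The uptake receptors differed in size of change. Cubn (cubilin) and its partner Amn (amnionless) were at -1.29 (SE 0.30) and -1.38 (SE 0.21), while Lrp2 (megalin), which also serves the neural plate and other epithelia, was at -0.32 (SE 0.08), with 543, 516 and 447 CPM in wild-type and 374, 435 and 384 CPM in mutants. Their adaptor Dab2 was at -0.80 (SE 0.19). Hnf4a, a transcription factor that drives many of these genes, had 40.0, 40.3 and 30.0 CPM in wild-type and 11.3, 26.8 and 11 CPM in mutants and did not pass the threshold, although the genotypes did not overlap (-1.11, SE 0.30, FDR = 0.10 in edgeR's quasi-likelihood test).

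Windows before the start of visceral endoderm genes hold GTTAAT, a homeodomain half-site, and are shown because these genes fell together, although most matched members of the list lack it. They come from the same RefSeq promoters, with the match in capitals on the strand of the gene, where ATTAAC is the same half-site read from the other strand. They lie at chr5:90490589-90490634 for Afp, chr3:83026090-83026135 for Fga, chr3:83049867-83049912 for Fgb and chr15:6386663-6386708 for Dab2.
Afp: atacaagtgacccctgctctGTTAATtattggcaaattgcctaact
Fga: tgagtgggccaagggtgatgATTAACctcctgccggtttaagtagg
Fgb: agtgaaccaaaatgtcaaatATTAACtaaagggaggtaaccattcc
Dab2: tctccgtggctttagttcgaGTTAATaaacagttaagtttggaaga
GTTAAT was found on either strand in 6.43% of all promoters of the table, in at least 1 promoter of 9.29% of the matched transcripts called lower, of 3.82% of those called higher and of 5.05% of all matched transcripts tested. Of the visceral endoderm list 21 of 27 members matched (77.8%), too few for a share, and 6 of the 21 hold it. In the same order, the shares for AGATAA, bound by factors of the Gata family, were 9.99% per promoter and 8.57%, 6.37% and 7.32% per transcript. For ACGTG, the core of hypoxia and E-box sites, they were 16.6% per promoter and 27.9%, 30.6% and 24.8% per transcript. For TGATGNAAT, the ATF4 site, they were 0.816% per promoter and 0.357%, 0.637% and 0.474% per transcript. None of these motifs is contained in another.

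A list of 35 brush border and transport genes was written after the values had been seen, so its count describes the genes chosen and supports nothing. Of the 32 kept 30 were lower, against 2.45% of all transcripts tested, at a median of -1.08. Without wild-type replicates 1, 2 and 3 there were 3, 19 and 18 calls, without mutant replicates 1 and 3 there were 7 and 15, and with sex as a covariate there were 0, at a median of -0.65. Slc2a2, a glucose transporter, had 74.5, 63.2 and 60.6 CPM in wild-type and 20.4, 38.1 and 12.6 CPM in mutant embryos (log2 fold change -1.40, SE 0.29). Fabp2, an intestinal fatty acid binding protein, was scarce, at 1.64, 1.39 and 1.45 CPM in wild-type and 0.198, 0.290 and 0.313 CPM in mutants (-2.46, SE 0.31), with 3 to 6 counts in each mutant library, and it passed the filter through the wild-type embryos alone, as 2 members of the list did. Other transcripts among the 15 largest falls at 5 CPM or more were Creb3l3 (-1.47), a membrane-bound transcription factor of lipid metabolism, Klb (-1.46), the coreceptor of endocrine FGFs, Lgals2 (-1.49), a galectin, and the claudin Cldn2 (-1.39). Cdhr2 (-1.39), a brush border cadherin, Slc7a9 (-1.43), an amino acid transporter, Pdzk1 (-1.40), a scaffold for transporters, and S100g (-1.39), a calcium-binding protein, completed the epithelial genes, together with the carbonic anhydrase Car7 (-1.41), the phospholipase relative Pla2g12b (-1.37) and the organic anion transporter Slco4c1 (-1.37).

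Genes of lysosomes and endocytosis fell in part. Of 24 listed, 23 were kept and 13 were lower, against 2.45% of all transcripts tested, with a median of -0.32. Mutant replicate 2 was the highest mutant in 18 of the 23. The 5 called in common with the visceral endoderm list were Amn, Ctsh, Cubn, Dab2 and Lrp2. The remaining 8 encode lysosomal proteins that most cells use. Ctsl, a cathepsin, had 353, 316 and 323 CPM in wild-type and 208, 238 and 188 CPM in mutant embryos (-0.63, SE 0.08, FDR = 0.011 by edgeR's quasi-likelihood test). Among the others, the cathepsins Ctsb (-0.49), Ctsz (-0.44) and Ctsc (-1.01) and the lysosomal enzyme gene Hexa (-0.52) were also lower, as were the sialidase Neu1 (-0.59) and the sterol carrier Npc2 (-0.24). Without wild-type replicate 1, mutant replicate 1 or mutant replicate 3 the list had 3, 5 and 8 calls, and with sex as a covariate 1. Scpep1, a serine carboxypeptidase, had the lowest p of any lower transcript, with 59.0, 64.9 and 63.7 CPM in wild-type and 41.1, 43.9 and 42.5 CPM in mutants (-0.55, SE 0.06).

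**Figure D4:**
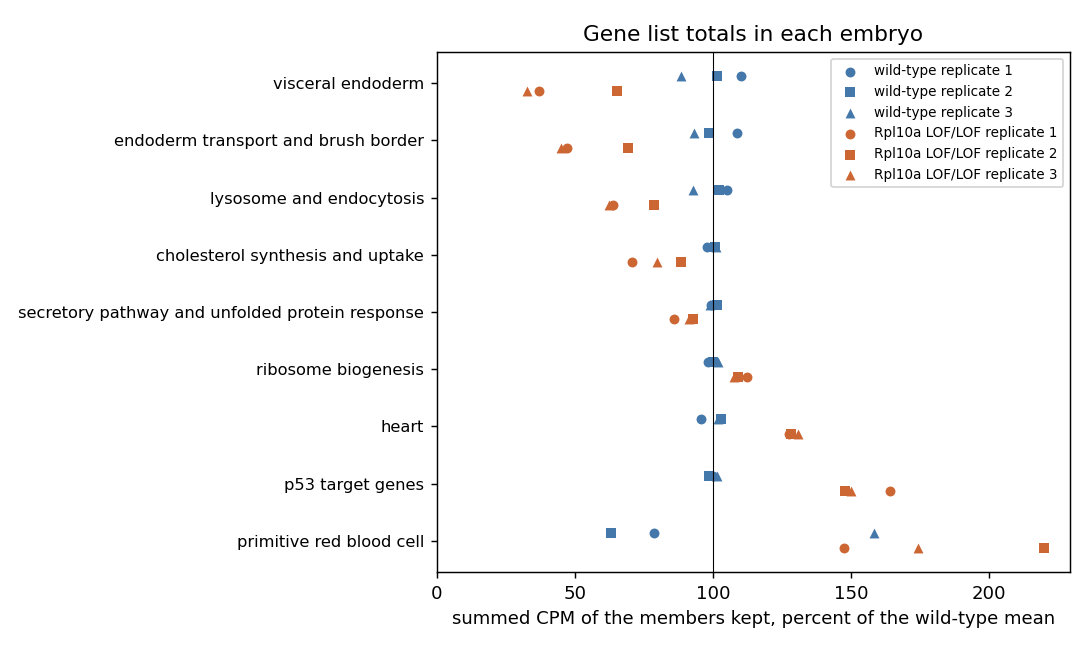
Summed CPM of the kept members of 9 gene lists in each embryo, as a percentage of the wild-type mean, with wild-type in blue, Rpl10a LOF/LOF in orange and 1 marker shape per replicate. Visceral endoderm totals of 36.9%, 65.3% and 32.6% in the mutants contrast with 164%, 148% and 150% for p53 targets, and red blood cell totals spread over both genotypes.

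Components of the secretory pathway were among the lower transcripts of lowest p. Xbp1, a transcription factor of the unfolded protein response, had 122, 121 and 127 CPM in wild-type and 91.8, 88.6 and 81.0 CPM in mutant embryos (log2 fold change -0.48, SE 0.06, FDR = 0.0052 by edgeR's quasi-likelihood test). Dnajc3, an inhibitor of the kinase PERK, had 223, 231 and 216 CPM in wild-type and 164, 179 and 167 CPM in mutants (-0.38, SE 0.05). Hspa5, the chaperone BiP, went from 1445, 1495 and 1510 CPM to 1246, 1305 and 1272 CPM (-0.21, SE 0.05). Xbp1 was at -0.43 with sex as a covariate and did not pass the threshold (FDR = 0.16 by edgeR's quasi-likelihood test), and in male embryos alone it was at -0.46 (FDR = 0.090 in the same test, with 1 mutant and the spread taken from the wild-type embryos). A list of 30 such genes was written after these values had been seen, so its count describes the choice and supports nothing. In it 10 were lower, against 2.45% of all transcripts tested, and 0 higher, with a median of -0.16. Without wild-type replicates 1 and 2 it had 3 and 6 calls, without mutant replicate 1 it had 5, in male embryos alone 2 and with sex as a covariate 0. Edem1 (-0.30), Manf (-0.25), Serp1 (-0.29) and Herpud1 (-0.42) were among them. Unlike in the endoderm genes, mutant replicate 2 was not always the highest mutant here, and for Herpud1 it was the lowest, at 24.3 CPM against 29.8 and 26.5.

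Of 28 genes of cholesterol synthesis and uptake, 3 were lower, against 2.45% of all transcripts tested, namely Apoe (-0.96), Scarb1 (-0.43) and Abca1 (-0.39), which serve lipid transport and not synthesis. Members of the synthetic pathway did not pass the threshold, with Hmgcs1 at -0.37, although 27 of the 28 were below 0 and the median was -0.24. In 19 of the 28 the mutants lay below the wild-type embryos without overlap, against 13.8% of all transcripts tested, and their summed CPM was 79.6% of the wild-type mean. With single embryos left out the calls ranged from 0, without wild-type replicate 1, to 10, without mutant replicate 2, and with sex as a covariate there were 0.

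Of 28 heart muscle genes listed, all were kept, 12 were higher, against 1.4% of all transcripts tested, and 0 were lower. The other 16 did not pass the threshold, and the median over the list was 0.28. Summed over the list, CPM was 1570, 1689 and 1671 in wild-type and 2093, 2107 and 2149 in mutant embryos, without overlap and with mutants at 129% of the wild-type mean. Ttn, the giant spring of the sarcomere, carried the largest change, with 303, 386 and 303 CPM in wild-type and 571, 485 and 522 CPM in mutants (log2 fold change 0.68, SE 0.09, FDR = 0.012 by edgeR's quasi-likelihood test). The contractile genes Myh6 (0.41), Actc1 (0.30), Mybpc3 (0.40) and Myl7 (0.31) followed. Myh6, the alpha myosin heavy chain, had 93.1, 93.8 and 96.3 CPM in wild-type and 126, 131 and 113 CPM in mutants. Myocd, a coactivator of muscle genes, went from 22.7, 25.6 and 23.4 CPM to 33.4, 33.1 and 32.2 CPM (0.47, SE 0.07).

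Nkx2-5, a transcription factor of heart cells, was at 0.21 and Isl1, a marker of second heart field progenitors, at 0.12, and neither passed the threshold. Nppb was the 1 member below 0, at -0.24 (SE 0.24). A second list of heart muscle genes was written after the values had been seen, and its count supports nothing. It had 15 of 25 higher, against 1.4% of all transcripts tested, among them Xirp1 (0.62), Unc45b (0.41) and Slc8a1 (0.38). It had between 4 and 9 calls with single embryos left out, the 4 without wild-type replicate 1, and 0 with sex as a covariate or in male embryos alone. With sex as a covariate 1 member of the first list, Myh6, was called at 0.51, while the median stayed at 0.26, and with single embryos left out between 4 and 10 members were called. The 4 came without wild-type replicate 1 and 6 came without mutant replicate 3.

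Red blood cell genes were variable in both genotypes. All 30 listed were kept, 1 was higher, against 1.4% of all transcripts tested, and 0 were lower. The median log2 fold change was 0.98, the highest of the tissue lists. Unadjusted p-values under 0.05 in edgeR's quasi-likelihood test were found in 26, against 15.8% of all transcripts tested. In 13 the mutants lay above the wild-type embryos without overlap, against 8.08% of all. Summed CPM was 1226, 983 and 2465 in wild-type and 2297, 3426 and 2713 in mutant embryos, so wild-type replicate 3 exceeded the lowest mutant. Hbb-y, an embryonic globin, had 95.5, 52.2 and 280 CPM in wild-type and 281, 452 and 399 CPM in mutants (1.40, SE 0.48, FDR = 0.20 by edgeR's quasi-likelihood test). Slc4a1, the anion exchanger of the red cell membrane, had 17.4, 13.4 and 42.2 CPM in wild-type and 52.1, 81.0 and 55.1 CPM in mutants (1.36, SE 0.36, FDR = 0.10 in the same test). The 1 called member was the red cell surface protein Ermap (1.3, SE 0.29). Without wild-type replicate 3, 27 of the 30 were called higher and the median was 1.59, whereas leaving out any other embryo called 0. The calls numbered 21 with no filter on low counts, 7 with limma-voom and 7 with the replicate block, 6 with DESeq2, and 0 with sex as a covariate, at a median of 1.3. The globin genes are near-identical copies in part, and their counts may be shared among them.

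**Figure D5:**
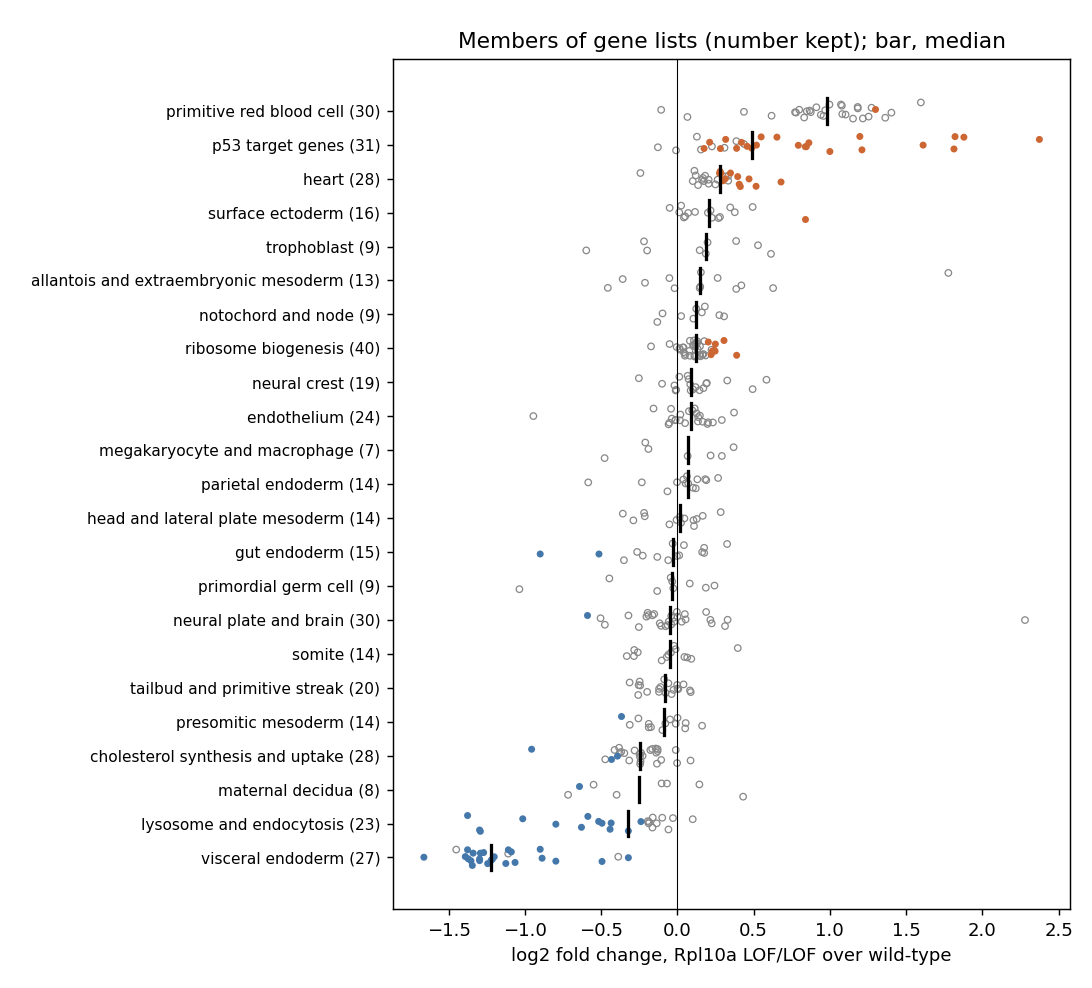
Log2 fold change of Rpl10a LOF/LOF over wild-type for the kept members of the tissue lists and 4 other lists, ordered by median (black bar), with the number of members in parentheses, called members filled (orange higher, blue lower) and others open. Red blood cell genes have a median of 0.98 with 1 call, p53 targets 0.49 with 23 and visceral endoderm -1.22 with 24, while most other tissues centre near 0.

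Most other tissues gave few calls or none. With 3.85% of all transcripts tested called, few were due in lists this short. No member was called among 14 parietal endoderm, 9 trophoblast, 7 megakaryocyte and macrophage, 24 endothelium, 14 somite, 20 tailbud and primitive streak, 9 notochord and node, 19 neural crest, 13 allantois, 14 head and lateral plate mesoderm and 9 primordial germ cell genes kept. By edgeR's quasi-likelihood test, unadjusted p-values under 0.05 were found in 3, 1, 1, 2, 1, 3, 0, 5, 5, 2 and 1 of these, in that order, and in 15.8% of all transcripts tested. The mesoderm genes that the study names did not pass the threshold in mRNA. The study stained for mesoderm and midline genes at later stages than E8.5, mainly in the tail bud and somites. It describes E8.5 embryos of both genotypes as indistinguishable, and whole embryos do not resolve the tail bud. T (Brachyury), which drives mesoderm formation, had 44.2, 44.4 and 44.5 CPM in wild-type and 46.0, 39.9 and 37.8 CPM in mutants (-0.09, SE 0.08). Tbx6 was at -0.17 (SE 0.11) and Msgn1 at -0.26 (SE 0.13). Lfng, a Notch modulator of the segmentation clock, was the 1 presomitic gene called, with 37.7, 42.9 and 37.1 CPM in wild-type and 32.6, 28.4 and 29.5 CPM in mutants (-0.37, SE 0.08, FDR = 0.062).

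Among the somite, midline and neural genes that the study follows, none passed the threshold in these whole E8.5 embryos. Uncx (-0.28, SE 0.21), Meox1 (-0.06, SE 0.07), Foxc2 (0.05, SE 0.10), Shh (0.12, SE 0.11), Fgf8 (-0.00118, SE 0.10) and Sox2 (-0.04, SE 0.07) all overlapped between the genotypes. Hes5, a Notch target of neural progenitors, did fall, from 20.4, 23.8 and 21.7 CPM to 15.5, 13.9 and 14.5 CPM (-0.58, SE 0.09). En2, of the midbrain and hindbrain, was at -0.59 (SE 0.14) and was the 1 neural plate gene of 30 called. Cldn7 (-0.51) and Spink1 (-0.90) were lower among 15 gut endoderm genes kept, and Spink1 is also in the visceral endoderm list. Dlx5 (0.83), an ectodermal homeobox gene, was the 1 surface ectoderm gene of 16 called. Among all transcripts tested 1.4% were called higher and 2.45% lower. Cldn7, Spink1, En2 and Dlx5 were each called in 1 of 6 fits with an embryo left out, Lfng in 2 and Hes5 in 6, and with sex as a covariate none of these 6 genes was called, with Cldn7 at -0.25 and Spink1 at -0.49.

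Of 17 Notch pathway genes 2 were lower, Hes5 and Lfng, against 2.45% of all transcripts tested. Unadjusted p-values under 0.05 in edgeR's quasi-likelihood test were found in 6 of the 17, against 15.8% of all transcripts tested. In Wnt targets (19 kept), FGF feedback (12), hedgehog targets (12), BMP and Nodal (19), planar cell polarity (28) and Hox genes (31), no member was called, and unadjusted p-values under 0.05 in edgeR's quasi-likelihood test were found in 1, 2, 3, 3, 4 and 4, against 15.8% of all transcripts tested. Their medians lay between -0.08 and 0.09. Axin2, a feedback target of Wnt, had 110, 120 and 114 CPM in wild-type and 126, 119 and 120 CPM in mutants (0.10, SE 0.05). The polarity genes Vangl2 (-0.01, SE 0.07), Fzd3 (-0.19, SE 0.09), Sfrp2 (-0.17, SE 0.08) and Rac1 (-0.06, SE 0.05) did not pass the threshold either. The same held for Fgfr1 (-0.09, SE 0.06), Smad4 (-0.04, SE 0.06), Tgfbr1 (-0.14, SE 0.04) and Gapdh (0.12, SE 0.10). Of these Tgfbr1 was lower in all 3 mutants than in any wild-type embryo. The paper chose Vangl2 and Fzd3 from these same embryos, among genes changed in footprints and not in total RNA. Their lack of a call here follows from that choice. The retinoic acid list had 3 of 17 lower, against 2.45% of all transcripts tested. These were Rbp4, described above, and the cytosolic carriers Crabp1 (-0.24) and Crabp2 (-0.30). With an embryo left out the list had 0 to 2 calls, with the 0 coming without wild-type replicate 1 and the 2 without wild-type replicate 3, and it had 0 with sex as a covariate.

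Of 40 ribosome biogenesis genes 8 were higher, against 1.4% of all transcripts tested, and 0 were lower. The median was 0.12, and 21 of them did not overlap upward, against 8.08% of all transcripts. Polr1a, the largest subunit of RNA polymerase I, had 171, 191 and 176 CPM in wild-type and 231, 233 and 234 CPM in mutant embryos (log2 fold change 0.39, SE 0.05, FDR = 0.0093 by edgeR's quasi-likelihood test). Utp20, of the small subunit processome, had 264, 279 and 275 CPM in wild-type and 345, 332 and 325 CPM in mutants (0.31, SE 0.05). Without wild-type replicate 1 the list had 1 call and without mutant replicate 1 it had 4, and with sex as a covariate 0. In a second list of 50, written after the values had been seen and therefore no support, 9 were higher, which fell to 0 without wild-type replicate 1, to 4 without wild-type replicate 2, to between 3 and 5 without each mutant, and to 0 with sex as a covariate or in male embryos alone. Among 79 ribosomal protein genes kept, 2 were called, against 3.85% of all transcripts tested, and Rpl10a is not in that list. These were the p53 target Rps27l (0.28), also counted there, and Rpl22l1 (-0.32), and the median was 0.07. Each was called in 2 of 6 fits with an embryo left out and not with sex as a covariate.

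Stress and metabolism lists gave few calls. Of 33 integrated stress response genes 3 were higher, namely Sesn2, Atf4 and Slc7a1, against 1.4% of all transcripts tested. Psat1 (-0.21), of serine synthesis, was lower, against 2.45% of all. Unadjusted p-values under 0.05 in edgeR's quasi-likelihood test were found in 11 of the 33, against 15.8% of all transcripts tested. Atf4, the transcription factor of this response, had 122, 123 and 126 CPM in wild-type and 138, 149 and 144 CPM in mutants (0.23, SE 0.05). Its targets Asns (0.02) and Trib3 (0.10) did not pass the threshold. No gene was called among 13 mitochondrially encoded transcripts, 57 histone genes, 36 cell cycle genes, 24 immediate early genes and 16 interferon genes, and by edgeR's quasi-likelihood test unadjusted p-values under 0.05 were found in 2, 4, 4, 0 and 6, against 15.8% of all transcripts tested. Single members were called among 34 glycolysis genes (Ero1l, -0.21) and 29 imprinted genes (Nnat, -0.27), against 3.85% of all transcripts tested. The 15 iron handling genes gave the reductase Steap3 (0.94) and transferrin (Trf, -0.89), the latter also a visceral endoderm gene. Versican (Vcan, 0.31) and tenascin C (Tnc, 0.31) were higher among 28 extracellular matrix genes, against 1.4% of all transcripts tested. Dnajb1 (-0.23) and Hspa5 were lower among 11 heat shock genes kept, against 2.45% of all. With an embryo left out, Ero1l and Dnajb1 were called in 0 of 6 fits, Steap3, Trf, Slc7a1 and Hspa5 in 1, Atf4, Psat1, Vcan and Tnc in 2 and Nnat in 5. None of these 11 genes was called with sex as a covariate, where Vcan was at 0.15, Tnc at 0.22, Psat1 at -0.13 and Slc7a1 at 0.19.

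Transcripts of maternal tissue were present at low levels and were not even across embryos. Summed CPM of 8 decidual genes was 129, 186 and 168 in wild-type and 154, 106 and 144 in mutant embryos. The uterine granzyme Gzme had 1.97, 1.58 and 1.40 CPM in wild-type and 0.397, 0.145 and 0.522 CPM in mutants (-2.28, SE 0.38), so that it passed the filter through the wild-type embryos alone, and Gzmg was at -1.25 (SE 0.33). Lumican (Lum), of connective tissue, was at -0.65 (SE 0.13). It was the 1 of the 8 decidual genes called, against 2.45% lower among all transcripts tested. Lum was called in 2 of 6 fits with an embryo left out and not with sex as a covariate. In 9 granzyme and decidual genes of a list written after the values had been seen, mutant replicate 2 was the lowest mutant in all 9. The list had 2 calls, both lower, against 2.45% of all transcripts tested. It had 5 at a median of -2.41 with sex as a covariate, 5 with limma-voom and 4 with DESeq2. Without any 1 wild-type embryo it had 0 calls. It then held 8 members, since Gzme failed the filter, while Gzmg was kept and lost its call. Gzmg was called in 0 of 6 fits with an embryo left out. Summed CPM of the 9 genes was 33.0, 55.3 and 40.0 in wild-type and 21.6, 10.4 and 34.7 in mutant embryos. These genes are expressed in the uterus, and their part in other results was not tested.

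Of 12 X-linked genes listed for escape from inactivation or sex dosage, 2 were called higher, against 1.4% of all transcripts tested. In 7 of the 12 mutant replicate 2 was the lowest mutant. Eif2s3x, a subunit of an initiation factor, had 479, 471 and 499 CPM in the wild-type males, 509 CPM in male mutant replicate 2, and 763 and 716 CPM in the female mutants (0.47, SE 0.12). Kdm5c, a histone demethylase, was at 0.36 (SE 0.10) and was the 1 called transcript of the 539 whose genotypes overlapped.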

How the data were processed

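Raw read counts per transcript were used as deposited by the authors. Per the labels and the study's methods, rRNA-depleted total RNA was trimmed with cutadapt, deduplicated with UMI-tools and aligned with Bowtie2 to mouse transcripts (GRCm38). Here the 6 RNA columns alone were kept, with transcripts above 0.75 CPM in at least 3 libraries, and fitted with edgeR 4.0.16 (R 4.3.3) by TMM scaling, a genotype term and the quasi-likelihood test, with Benjamini-Hochberg FDR below 0.1 as the call. Standard errors are approximate, being the fold change divided by the square root of F. CPM uses library totals. P-values measure the spread between the 3 embryos of a genotype. The script was tested on simulated data.

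Members and lists were chosen with earlier results of these data known. Genes named were the 5 of lowest p and the 15 of largest change at 5 CPM or more in each direction, the 5 largest outside the RPF filter (Xist set aside), up to 6 called members of each list and the mesoderm and Wnt genes of the study. Further genes, and 6 lists so described, were chosen after their values were seen. Alternatives used DESeq2 1.42.0, limma 3.58.1 and sva 3.50.0. Same-numbered embryos did not deviate together (correlations -0.083, -0.121 and -0.00449), so the numbers do not pair them. Promoter sequences are RefSeq's. A few genes covered by the naming rule are not reported here.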

Additional observations from a re-analysis of the deposited data

How the results depend on the processing

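With genotype alone 539 transcripts were called, 196 higher and 343 lower. With sex as a covariate Rpl10a RNA was at -0.2805 and was not called. The count was then 31 (23 higher, 8 lower), with 2 visceral endoderm, 1 heart and 10 p53 list members called. In the male embryos alone it was 32 (20 higher, 12 lower), with 3 visceral endoderm, 1 heart and 10 p53 list members called and Rpl10a at -0.2635. Both alternatives leave 1 male mutant to carry the contrast, which lowers the power as well as removing sex, and these cannot be told apart. At an FDR of 0.05 the count was 219 (85 higher, 134 lower), with 14 visceral endoderm and 6 heart members, and Rpl10a, at -0.2233, was not called. limma-voom with sva gave 116 higher with Rpl10a at -0.2238, not called, and no filter on low counts gave 304 higher. Numbers do not pair the embryos, and with the replicate block 367 transcripts were called, 128 of them higher, with Rpl10a at -0.2227 and not called.

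Leaving out single embryos gave 86 to 525 calls, 47 to 201 higher and 39 to 399 lower. The visceral endoderm list then had 4 to 27 lower, the heart list 4 to 10 higher and the p53 list 14 to 20 higher, and Rpl10a ranged from -0.2636 to -0.1935. Lowest counts came without wild-type replicate 1, highest without mutant replicate 2 in all calls, lower calls, visceral endoderm and p53 genes, and without a wild-type embryo in the other 2. DESeq2 called 570, 443 of them in common, and left 284 adjusted p-values as NA. Some genes changed sign, none of them called with genotype alone. With sex as a covariate and in male embryos alone, Foxc2 RNA was at -0.1002 and -0.1115, Shh RNA at -0.06277 and -0.08262 and Eif2s3y RNA at 0.2061 and 0.08011, and with the covariate Uty RNA was at 0.07213. Fgf8 RNA was at 0.002644 with DESeq2, 0.01843 with limma-voom, 0.02225 with 1 surrogate variable, 0.00225 with RLE size factors, 0.004871 without the filter and 0.001615 without 3 gene lists. With single embryos left out, Fgf8 RNA ranged from -0.1153 to 0.06046, Foxc2 RNA from -0.03981 to 0.1261, Vangl2 RNA from -0.06385 to 0.07213, Meox1 RNA from -0.1179 to 0.002922 and Sox2 RNA from -0.1319 to 0.002525. The cause of these shifts was not tested. Depth limits the scarce transcripts most, and whole embryos do not separate cell number from RNA per cell.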
